A study of Mus musculus with 16 samples.

Results

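A group of 5 microRNAs (miRNAs) was followed in the culture supernatant of HCT116 cells after X-rays. They were hsa-miR-17-5p and hsa-miR-92a-3p, the first and the last miRNA of the MIR17HG cluster that runs from miR-17 to miR-92a, hsa-miR-93-5p and hsa-miR-25-3p from the miR-106b-25 cluster, and hsa-miR-92b-3p, which is encoded apart from both. The prefix for human, hsa-, is left out below. The 5 members were the probes' human miRNA names that equalled a listed name, of 1205 human miRNAs on the array, and all 5 were among the 283 human miRNAs bright enough to be tested. HCT116 is an established human colorectal carcinoma line. The cells received high-dose-rate X-rays at 0, 2, 6 or 10 Gy and were left for 72 h in RPMI1640 that held 10% fetal bovine serum (FBS), so the unirradiated cultures shared the medium, the serum and the time. RNA was taken from the medium with ISOGEN, 100 ng was labelled with Cy3, and each of 4 separate cultures per dose had 1 single-colour Agilent array, 16 in all. The labels name the organism as mouse and the design text leaves out 2 Gy. The values were read as human miRNAs because the line and the probes are human, and the labels of the 2 Gy arrays gave their group. The same 100 ng was labelled for every array and signals were scaled between arrays. Levels are therefore relative to the other RNA on the array and are not amounts in the medium. They show neither the number of cells nor the miRNA released per cell, and these 2 cannot be told apart here.

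A miRNA cluster is a set of hairpins cut from 1 primary transcript, so its mature miRNAs are made together but can differ in processing, stability and export. The MIR17HG transcript is a direct target of MYC, and E2F factors also act on it. The miR-106b-25 hairpins lie in an intron of MCM7, which encodes a subunit of the replicative helicase and is itself an E2F target. Both clusters are raised in many carcinomas, colorectal ones included. The seed, which is the stretch near the 5′ end that pairs with target mRNAs, divides the members by function. miR-17-5p and miR-93-5p share one seed and repress the cell cycle inhibitor CDKN1A (p21), a p53 target induced by radiation. miR-25-3p, miR-92a-3p and miR-92b-3p share the other seed. miR-25-3p represses the pro-apoptotic BCL2L11 (BIM), miR-92a-3p represses the integrin subunit ITGA5 in endothelial cells, and miR-92b-3p is best known from neural progenitors.

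The mature sequences show how closely the members resemble each other, which bears on how far array probes can separate them. The sequences used here are the mouse ones from RefSeq (GRCm38.p6), in which all 5 members were matched by name. Capitals mark the seed, bases 2 to 8 from the 5′ end, and the first pair has the seed of miR-17 and the other 3 the seed of miR-92.
mmu-miR-17-5p: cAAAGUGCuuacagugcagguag
mmu-miR-93-5p: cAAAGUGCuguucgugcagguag
mmu-miR-92a-3p: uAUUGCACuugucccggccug
mmu-miR-25-3p: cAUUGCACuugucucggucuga
mmu-miR-92b-3p: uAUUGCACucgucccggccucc
Counted from the 5′ end, miR-17-5p and miR-93-5p had the same base at 19 of 23 positions. miR-92a-3p had the same base as miR-92b-3p at 19 of 21 positions and as miR-25-3p at 18 of 21, so the brighter miR-92a-3p may also add signal to the probes of miR-92b-3p, which was not tested. miR-17-5p and miR-93-5p share their seed with miR-20a-5p and miR-106b-5p of the same clusters.
mmu-miR-20a-5p: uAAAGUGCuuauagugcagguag
mmu-miR-106b-5p: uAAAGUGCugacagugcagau
miR-17-5p and miR-20a-5p were equal at 21 of 23 positions, so the values of these 2 relatives may share signal on the array, which was not tested. In that mouse assembly miR-17-5p lies at chr14:115043684-115043706 and miR-92a-3p at chr14:115044476-115044496, both on the plus strand of a locus of 836 bases. A second copy of miR-92a-3p lies at chrX:52741854-52741874 on the minus strand, so its level can come from more than 1 locus. miR-93-5p (chr5:138165574-138165596) and miR-25-3p (chr5:138165332-138165353) lie on the minus strand inside Mcm7, in a locus of 498 bases. miR-92b-3p stands alone at chr3:89227126-89227147 on the minus strand. GC content ran from 47.8% for miR-17-5p to 63.6% for miR-92b-3p.

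Between 242 and 358 human miRNAs were detected per array. Levels are log2 of the probe signal after each array was scaled to the 75th percentile of the 518 probes detected on all arrays. They were floored at -4.60, so they compare arrays for 1 miRNA and not miRNAs with each other, and a fall that reaches the floor is understated. Slide 1 held the arrays of 0 and 2 Gy and slide 2 those of 6 and 10 Gy, so for 6 and 10 Gy against 0 Gy dose and slide cannot be told apart. The arrays that stood apart in the members' levels were 0 Gy replicate 3, 2 Gy replicate 2 and 6 Gy replicate 4. Both labelling spike-ins, RNAs added when the sample is labelled, were undetected on 0 Gy replicate 3 and 6 Gy replicate 4. The differences between doses are given below with and without these arrays, where leaving one out moved a value by over 1.5 times or changed a call.

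Beyond the 5 members, the 3 loci encode 15 other mature miRNAs on the array, and 7 of them were detected at all. None was detected on all 4 arrays of a dose, so none was tested. miR-20a-5p, a seed relative of miR-17-5p, was detected on 3, 1, 2 and 3 arrays at 0, 2, 6 and 10 Gy. miR-19b-3p, one of the miR-19 members of the MIR17HG cluster, was detected on 3, 1, 1 and 3 arrays, and miR-106b-5p on 3, 1, 0 and 3. These 3 miRNAs were each seen more often at 0 and 10 Gy than at 2 and 6 Gy. miR-19a-3p was detected on 3 arrays at 0 Gy and 1 at 2 Gy, miR-106b-3p on 2 arrays and miR-18a-5p and miR-93-3p on 1 array each, all at 0 Gy. The 8 others, miR-17-3p, miR-18a-3p, miR-19a-5p, miR-20a-3p, miR-19b-1-5p, miR-92a-1-5p, miR-25-5p and miR-92b-5p, were not detected on any array. The mouse sequences of the miR-19 pair are shown because their seed sets them apart from the members.
mmu-miR-19a-3p: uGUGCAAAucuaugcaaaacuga
mmu-miR-19b-3p: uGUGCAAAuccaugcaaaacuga
Of the paralogous miR-106a-363 cluster, 9 of 10 names matched the array, and miR-18b-3p was the 1 that was detected, on all 16 arrays. Its log2 differences were -0.03 (2 Gy against 0 Gy), 0.18 (6 against 0), -0.30 (10 against 0) and -0.48 (10 against 6), and none passed (limma, adjusted p = 0.887, 0.446, 0.404 and 0.321). The 4 seed relatives miR-32-5p, miR-367-3p, miR-519d-3p and miR-526b-3p were not detected.

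**Figure D1:**
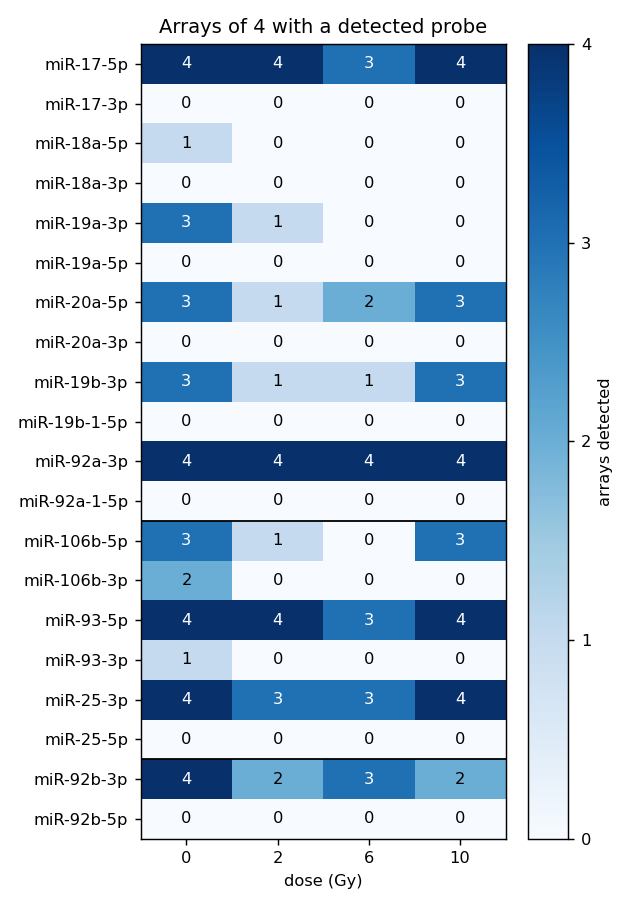
Number of the 4 arrays of a dose (x axis, Gy) on which at least 1 probe of a mature miRNA was detected (y axis, names), with lines between the MIR17HG cluster, the miR-106b-25 cluster and miR-92b. miR-92a-3p is the 1 miRNA detected on 4 arrays at every dose, and miR-20a-5p, miR-19b-3p and miR-106b-5p were detected on 3 arrays at 0 and at 10 Gy.

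miR-17-5p, the first miRNA of its cluster, read -0.48, -0.85, -2.67 and -0.70 at 0 Gy (replicates 1 to 4), -2.62, -1.04, -2.76 and -2.55 at 2 Gy, -2.85, -1.42, -2.43 and -4.60 (the floor) at 6 Gy, and -1.95, -1.27, -1.53 and -2.46 at 10 Gy. The highest 3 arrays were unirradiated, but 0 Gy replicate 3 lay among the 2 Gy arrays and 2 Gy replicate 2 near the unirradiated ones, so every irradiated group overlapped with 0 Gy. The means were -1.18 ± 1.01, -2.25 ± 0.81, -2.82 ± 1.33 and -1.80 ± 0.52 at 0, 2, 6 and 10 Gy (SD, n = 4 each).

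miR-92a-3p, the last miRNA of the cluster and the 1 member detected on every array, read 0.73, 1.64, -0.10 and 1.09 at 0 Gy, -0.53, 0.50, -0.78 and -0.63 at 2 Gy, -0.03, 0.67, 0.06 and -1.87 at 6 Gy, and 0.48, 0.89, 0.78 and 0.51 at 10 Gy. The 10 Gy arrays lay close together inside the range of 0 Gy, and 3 of 4 arrays at 2 Gy lay below every unirradiated array. Its means were 0.84 ± 0.73, -0.36 ± 0.58, -0.29 ± 1.1 and 0.67 ± 0.20 at 0, 2, 6 and 10 Gy (SD, n = 4 each).

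miR-93-5p, which shares the seed of miR-17-5p, read -1.15, -1.87, -3.44 and -1.36 at 0 Gy, -4.11, -1.55, -3.99 and -4.01 at 2 Gy, -3.96, -2.54, -3.08 and -4.60 (the floor) at 6 Gy, and -2.36, -2.33, -2.10 and -3.36 at 10 Gy. Again 0 Gy replicate 3 was low and 2 Gy replicate 2 was high, and no pair of doses was fully separated. The means were -1.96 ± 1.04, -3.42 ± 1.24, -3.55 ± 0.91 and -2.54 ± 0.56 at 0, 2, 6 and 10 Gy (SD, n = 4 each).

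miR-25-3p, cut from the same MCM7 intron, had the widest range of the 5. It read 0.25, 0.48, -3.29 and 0.41 at 0 Gy, -4.60, -1.33, -4.60 and -4.60 at 2 Gy, -4.26, -2.54, -2.92 and -4.60 at 6 Gy, and -2.28, -0.24, -1.47 and -2.48 at 10 Gy. At 2 Gy 2 arrays were at the floor and replicate 4 just above it, and at 6 Gy replicate 4 was at the floor. In unscaled signal, the probe behind these values gave 413, 819, 55.4 and 535 at 0 Gy, 19.2, 270, 12.8 and 19.7 at 2 Gy, 35.1, 103, 46.1 and 2.39 at 6 Gy, and 97.4, 355, 148 and 51.4 at 10 Gy. The drop on 3 arrays at 2 Gy was therefore visible before scaling, and so was the low reading of 0 Gy replicate 3. The means were -0.54 ± 1.83, -3.78 ± 1.64, -3.58 ± 1.01 and -1.61 ± 1.02 at 0, 2, 6 and 10 Gy (SD, n = 4 each).

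miR-92b-3p was at the edge of detection. It read -3.69, -4.17, -4.45 and -4.28 at 0 Gy, lay at the floor on all 4 arrays at 2 Gy, and was above the floor on 1 array each at 6 Gy (replicate 4, -4.57) and 10 Gy (replicate 2, -4.56). Its probe was still detected on 2, 3 and 2 arrays at 2, 6 and 10 Gy, against 4 at 0 Gy. It entered the test only through 0 Gy, and 10 of its 12 irradiated values were at the floor. That its scaled values at 0 Gy lay above all 12 others therefore follows from the filter and the floor, and its differences and adjusted p-values are given below as a description that supports nothing. In unscaled signal the groups overlapped: 6 Gy replicate 4 gave 26.9 and 2 Gy replicate 2 gave 21.7, against 24.7 and 20.7 on 0 Gy replicates 3 and 4.

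**Figure D2:**
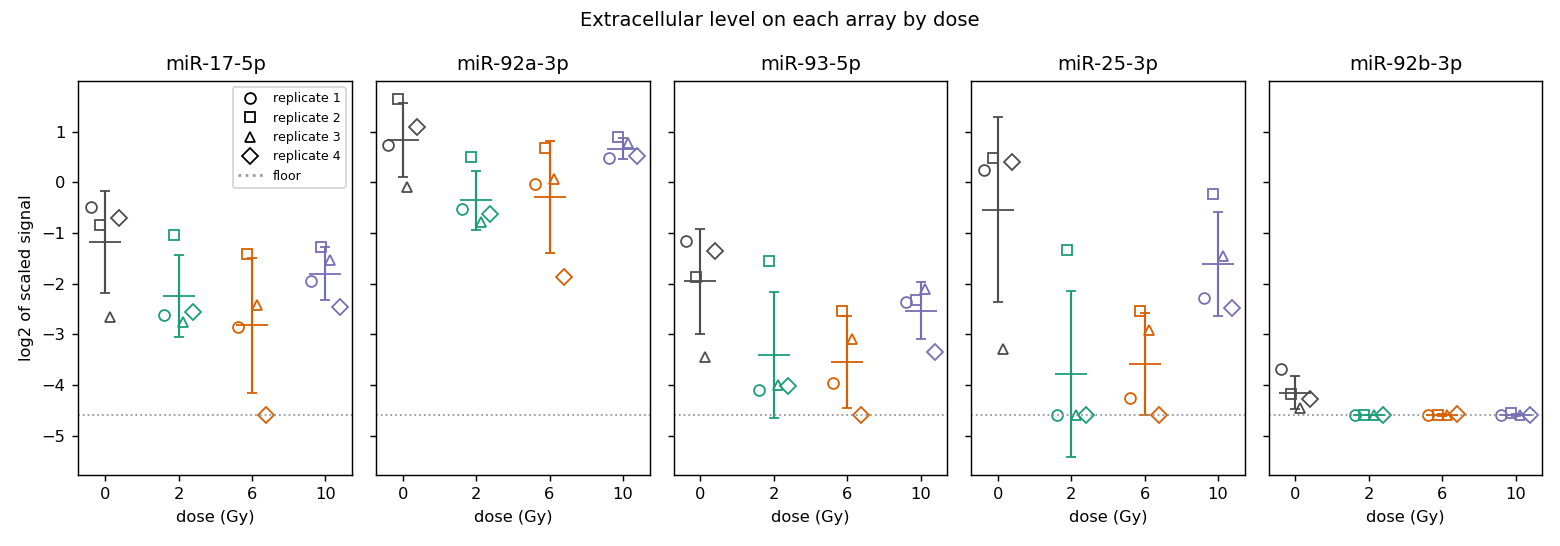
Log2 of scaled signal (y axis) of each member on the 16 arrays by dose (x axis, Gy). Symbols are the 4 replicates, bars the mean ± SD, and the dotted line the floor at -4.60; 0 Gy replicate 3 lies low for miR-17-5p, miR-93-5p and miR-25-3p, and 2 Gy replicate 2 lies high for the same 3.

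Ordered by mean, miR-17-5p and miR-93-5p were highest at 0 Gy, then at 10, 2 and 6 Gy, and miR-92a-3p and miR-25-3p were highest at 0 Gy, then at 10, 6 and 2 Gy. Neighbouring doses in these orders differed by less than the larger SD of the pair, except 10 and 6 Gy for miR-25-3p. No member passed the moderated F test for any difference among the 4 doses (limma, adjusted p = 0.0628 to 0.199), and neither did any of the 283 miRNAs, of which 91 (32.2%) had an unadjusted p under 0.05.

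The comparison of 2 Gy with 0 Gy lies within 1 slide and asks what the lowest dose did. The 4 members other than miR-92b-3p had fitted differences below 0 (47% of all 283 miRNAs did). The median of all 5 was -1.20 against 0.03 over all miRNAs, and it includes miR-92b-3p, whose sign the filter and the floor fix. Of the 5 members 2, miR-25-3p and miR-92b-3p, had an adjusted p under 0.05. Among all tested miRNAs 36 (12.7%) were called at an adjusted p under 0.05, 19 (6.71%) of them lower. miR-25-3p fell by 3.25 ± 0.93 (SE) on the log2 scale, a 9.48-fold lower signal (limma, adjusted p = 0.0350), and was lower on 3 of 4 arrays than on every unirradiated array. miR-92b-3p, tested only because all 4 unirradiated arrays detected it, read -0.45 ± 0.12 against 0 Gy with every 2 Gy array at the floor (limma, adjusted p = 0.0283), which the filter and the floor fix. Its scaled groups did not overlap, as held for 11.3% of all miRNAs in either direction and 4.24% in the lower one, and nothing is read from this. The difference was -1.46 (95% confidence interval -2.82 to -0.09) for miR-93-5p, -1.20 (-2.23 to -0.18) for miR-92a-3p and -1.07 (-2.42 to 0.28) for miR-17-5p. These 3 did not pass after adjustment over all miRNAs (limma, adjusted p = 0.122, 0.0972 and 0.223). The call of miR-25-3p was lost without any 1 of 0 Gy replicates 1, 2 and 4 or 2 Gy replicates 1, 3 and 4 (limma, adjusted p = 0.0869 to 0.113), while the difference was -2.98 to -2.91 in these fits, and it was lost with the 8 arrays of slide 1 alone (-3.25, limma, adjusted p = 0.131). That of miR-92b-3p was lost on leaving out either of 0 Gy replicates 1 and 2, or any 1 of 2 Gy replicates 1, 3 and 4. In contrast, leaving out 0 Gy replicate 3 or 2 Gy replicate 2 brought the members called to 4 in each case, among 121 (42.8%) and 87 (30.7%) of the 283 miRNAs, and the difference of miR-25-3p was -4.16 without the first and -4.06 without the second. Without 6 Gy replicate 4, which enters only the shared spread, 3 members were called among 55 (19.4%) of the 283. When the fit took the labelling spike-in as a covariate, the difference of miR-25-3p was -2.32 (limma, adjusted p = 0.0164). In that fit 2 of 5 members and 46 of 283 miRNAs (16.3%) were called. Each of these counts of members called includes miR-92b-3p, from which nothing is read.

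The comparison of 6 Gy with 0 Gy spans both slides. The differences of the 4 members other than miR-92b-3p were again below 0 (43.8% of all miRNAs). The median of all 5 was -1.59 against 0.12 over all miRNAs, and it includes miR-92b-3p, whose sign the filter and the floor fix. The same 2 members as at 2 Gy had an adjusted p under 0.05. Of the 283 miRNAs 55 (19.4%) were called, 38 (13.4%) of them lower. miR-25-3p fell by 3.04 ± 0.93 (SE; 8.23-fold lower; limma, adjusted p = 0.0407). miR-92b-3p, with 3 of 4 arrays at the floor, read -0.44 ± 0.12 against 0 Gy (limma, adjusted p = 0.0353), which the same filter and floor fix, as they do the separation of its scaled groups (9.19% of all miRNAs in either direction, 3.53% in the lower one). Without scaling it read -0.13 (limma, adjusted p = 0.612). miR-17-5p differed by -1.65 (95% confidence interval -3.0 to -0.30), miR-93-5p by -1.59 (-2.95 to -0.23) and miR-92a-3p by -1.13 (-2.16 to -0.11), and none of the 3 passed (limma, adjusted p = 0.0645, 0.0749 and 0.0871). Without 6 Gy replicate 4 the differences were -2.70 for miR-25-3p, -1.24 for miR-93-5p, -1.05 for miR-17-5p and -0.61 for miR-92a-3p (limma, adjusted p = 0.0932 to 0.245). When the fit took the spike-in as a covariate, the difference of miR-25-3p was -1.59 (adjusted p = 0.132, limma) and 0 of 5 members and 1 of 283 miRNAs were called. The call of miR-25-3p was lost on leaving out 11 of the 16 arrays singly, among them 0 Gy replicates 1, 2 and 4 and 6 Gy replicates 1, 3 and 4, and the call of miR-92b-3p on leaving out 9. Members called numbered 5 on leaving out 0 Gy replicate 3 (143 of 283 miRNAs called), 5 on leaving out 6 Gy replicate 2 (78 of 283), 3 on leaving out 2 Gy replicate 2 (73 of 283) and 0 on leaving out 6 Gy replicate 4 (0 of 283). A further fit left out both 0 Gy replicate 3 and 6 Gy replicate 4, a choice made after seeing the data. All 5 members were called there at 2 Gy, among 137 (48.4%) of the 283 miRNAs, and at 6 Gy, among 135 (47.7%). Each count of members above 0 includes miR-92b-3p, from which nothing is read.

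In the comparison of 10 Gy with 0 Gy the 4 members other than miR-92b-3p had differences below 0 (52.7% of all miRNAs). The median of all 5 was -0.58 against -0.02 over all miRNAs, and it includes miR-92b-3p, whose sign the filter and the floor fix. Of the members 0 of 5 passed (limma; 1 of 5, miR-92b-3p, at an unadjusted p under 0.05). Of the 283 miRNAs 1 (0.353%) was called, which was higher, with 63 at an unadjusted p under 0.05. The differences were -1.08 (95% confidence interval -3.07 to 0.92) for miR-25-3p, -0.63 (-1.98 to 0.72) for miR-17-5p, -0.58 (-1.94 to 0.78) for miR-93-5p and -0.18 (-1.20 to 0.85) for miR-92a-3p. Their adjusted p-values ran from 0.502 to 0.847 (limma), and the intervals do not exclude falls of the size fitted at 2 Gy for miR-17-5p and miR-93-5p. miR-92b-3p, with 3 of 4 arrays at the floor, read -0.44 ± 0.12 against 0 Gy (limma, adjusted p = 0.0616), which the filter and the floor fix, as they do the separation of its scaled groups (15.2% of all miRNAs in either direction, 5.3% in the lower one). Without 0 Gy replicate 3 the differences were -1.99 for miR-25-3p, -1.12 for miR-17-5p, -1.07 for miR-93-5p and -0.49 for miR-92a-3p (limma, adjusted p = 0.0928 to 0.464). In that fit miR-92b-3p read -0.54 (limma, adjusted p = 0.00995), 1 of 5 members, among 43 of the 283 miRNAs (15.2%).

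The comparison of 10 Gy with 6 Gy lies within slide 2. It shares no arrays with 2 Gy against 0 Gy, but shares its 6 Gy and 10 Gy arrays with the comparisons above. Here 4 members read higher at 10 Gy (49.1% of all miRNAs read lower), by 1.96 for miR-25-3p (95% confidence interval -0.03 to 3.96), 1.02 for miR-17-5p (-0.33 to 2.37), 1.01 for miR-93-5p (-0.35 to 2.38) and 0.96 for miR-92a-3p (-0.07 to 1.98). miR-92b-3p, near the floor at both doses, differed by 0.0015. In the fit of all 16 arrays 0 of 5 members passed (adjusted p = 0.326 to 0.993) and 0 of 283 miRNAs (0%; 42 at an unadjusted p under 0.05). The miR-25-3p groups did not overlap, as held for 10.6% of all miRNAs, with 2.47% lower. Replicates of the same number moved together at these 2 doses, and with slide 2 alone and the replicate number as a block, a fit chosen after seeing the data, miR-25-3p (adjusted p = 0.00474, limma) and miR-93-5p (adjusted p = 0.0408) passed among 55 of 283 miRNAs. All 4 members other than miR-92b-3p were higher at 10 Gy than at 6 Gy in 4 of 4 pairs of equal number. The share of all 283 miRNAs with such pairs was not counted, and the pairing was taken from these data, so nothing is read from this. Without 6 Gy replicate 4 the differences in the fit of the other arrays were 1.62 for miR-25-3p, 0.66 for miR-93-5p, 0.43 for miR-17-5p and 0.43 for miR-92a-3p (limma, adjusted p = 0.513 to 0.667). When the fit of 16 arrays took the spike-in as a covariate, the difference of miR-25-3p was 0.45 (adjusted p = 0.822).

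**Figure D3:**
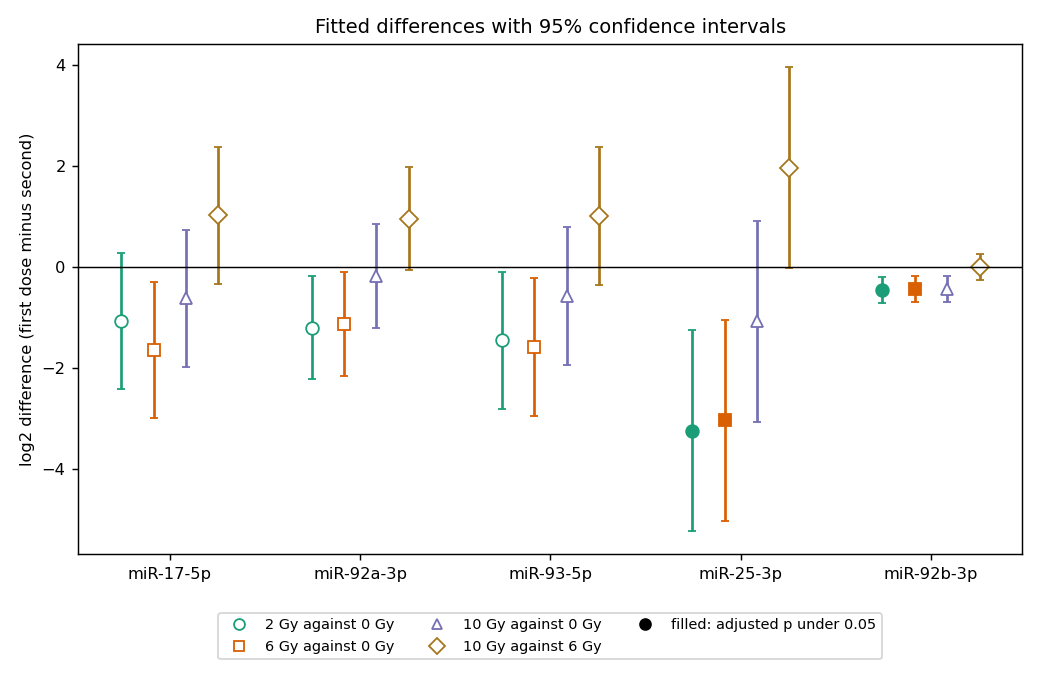
Fitted log2 differences (y axis, first dose minus second) of the 5 members (x axis) in the 4 comparisons, with 95% confidence intervals from limma; filled symbols had an adjusted p under 0.05. The filled symbols are miR-25-3p and miR-92b-3p at 2 and 6 Gy against 0 Gy.

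Since miR-25-3p and miR-93-5p come from 1 transcript, their log2 difference within an array was compared between doses, which is free of the array's scaling except at the floor. miR-25-3p minus miR-93-5p was 1.40, 2.35, 0.16 and 1.77 at 0 Gy, -0.50, 0.22, -0.61 and -0.59 at 2 Gy, -0.30, 0.005, 0.17 and 0.00 at 6 Gy, and 0.08, 2.09, 0.64 and 0.88 at 10 Gy. The sign of this difference only compares arrays, as the probes differ. The 3 highest unirradiated arrays stood above all 8 arrays at 2 and 6 Gy, while 0 Gy replicate 3 did not. The mean was -0.37 ± 0.40 at 2 Gy and 1.42 ± 0.93 at 0 Gy (SD, n = 4 each), a change of -1.79 (exact two-sided permutation p = 0.0571, adjusted over 8 tests 0.152). It was -0.03 ± 0.19 at 6 Gy, a change of -1.45 from 0 Gy (exact permutation p = 0.0571, adjusted 0.152), and 0.92 ± 0.85 at 10 Gy, a change of -0.50 from 0 Gy (exact permutation p = 0.429, adjusted 0.571). Between 10 and 6 Gy the change was 0.95 (exact permutation p = 0.0571, adjusted 0.152). With 70 regroupings of 4 against 4 arrays the smallest p is 0.0286, and none of the tests passed. On 2 Gy replicates 1 and 3 miR-25-3p and 1 probe of miR-93-5p were at the floor. On 6 Gy replicate 4 both miRNAs were, so its 0.00 is set by the floor, and without that array the change from 0 Gy at 6 Gy was -1.46 (exact permutation, adjusted p = 0.229).

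For the MIR17HG pair the same quantity moved less. miR-17-5p minus miR-92a-3p averaged -2.02 ± 0.64, -1.89 ± 0.24, -2.53 ± 0.33 and -2.47 ± 0.35 at 0, 2, 6 and 10 Gy (SD, n = 4 each). The changes were 0.13 (2 Gy against 0 Gy), -0.51 (6 against 0), -0.45 (10 against 0) and 0.06 (10 against 6), and the exact permutation p ran from 0.229 to 0.83 (adjusted 0.457 to 0.83). On 6 Gy replicate 4 miR-17-5p was at the floor. Its dimmest probe was also there on 0 Gy replicate 3, 2 Gy replicates 1, 3 and 4 and 10 Gy replicate 4. The floor therefore partly sets the size of these changes.

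**Figure D4:**
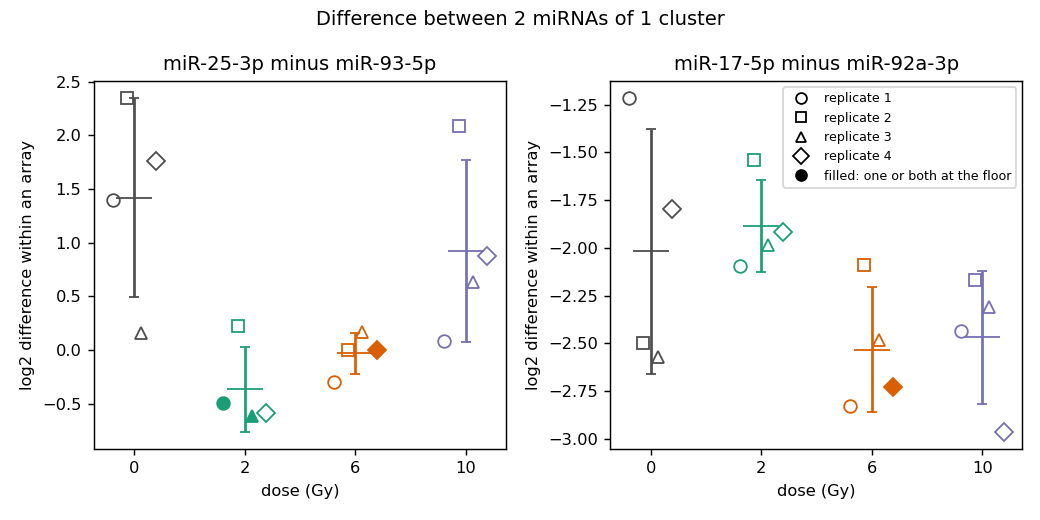
Log2 difference within an array (y axis) between 2 miRNAs of 1 cluster by dose (x axis, Gy), for miR-25-3p minus miR-93-5p (left) and miR-17-5p minus miR-92a-3p (right). Symbols are replicates, filled where 1 or both miRNAs were at the floor, and bars the mean ± SD; the left panel shows 3 arrays at 0 Gy above all arrays at 2 and 6 Gy.

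The labelling spike-in varied more between arrays than the members did. Its log2 signal averaged 6.64 ± 4.02, 4.60 ± 2.04, 3.41 ± 2.44 and 6.78 ± 1.23 at 0, 2, 6 and 10 Gy (SD, n = 4 each), and lay in the software's accepted range on 3 of 16 arrays, whereas the hybridisation spike-in did so on all 16. Its order of means, like that of the members other than miR-92b-3p, had 0 and 10 Gy above 2 and 6 Gy. Over the 16 arrays Pearson's r with the spike-in was 0.86 for miR-17-5p, 0.83 for miR-93-5p, 0.82 for miR-25-3p and 0.78 for miR-92a-3p (permutation p with 100000 resamples, adjusted over the 5 members 1e-04 to 5e-04). Spearman's rho was 0.87, 0.89, 0.87 and 0.81 for the same 4. For miR-92b-3p r was 0.49 (adjusted permutation p = 0.0509) and rho 0.41 (adjusted 0.112). Within slide 1 r was 0.85 for miR-17-5p, 0.80 for miR-93-5p, 0.78 for miR-25-3p and 0.67 for miR-92a-3p, and the first of these passed (exact permutation, adjusted p = 0.0327, against 0.0525, 0.0525 and 0.0760). Within slide 2 r was 0.90 to 0.93 for these 4 (exact permutation, adjusted p = 0.00327 to 0.00415), and -0.14 for miR-92b-3p. As deviations from the dose means, which leave dose out, r was 0.84 for miR-17-5p, 0.83 for miR-25-3p, 0.80 for miR-93-5p and 0.71 for miR-92a-3p. Without 6 Gy replicate 4 and 0 Gy replicate 3, whose spike-in lay farthest from the median, r was 0.82 for miR-17-5p, 0.84 for miR-93-5p, 0.89 for miR-25-3p, 0.71 for miR-92a-3p and 0.65 for miR-92b-3p. The share of all 283 miRNAs with an r this high was not counted, so these correlations are not read as a trait of the members. The part of the spike-in's variation in the differences between doses was not tested beyond the fit with it as a covariate.

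**Figure D5:**
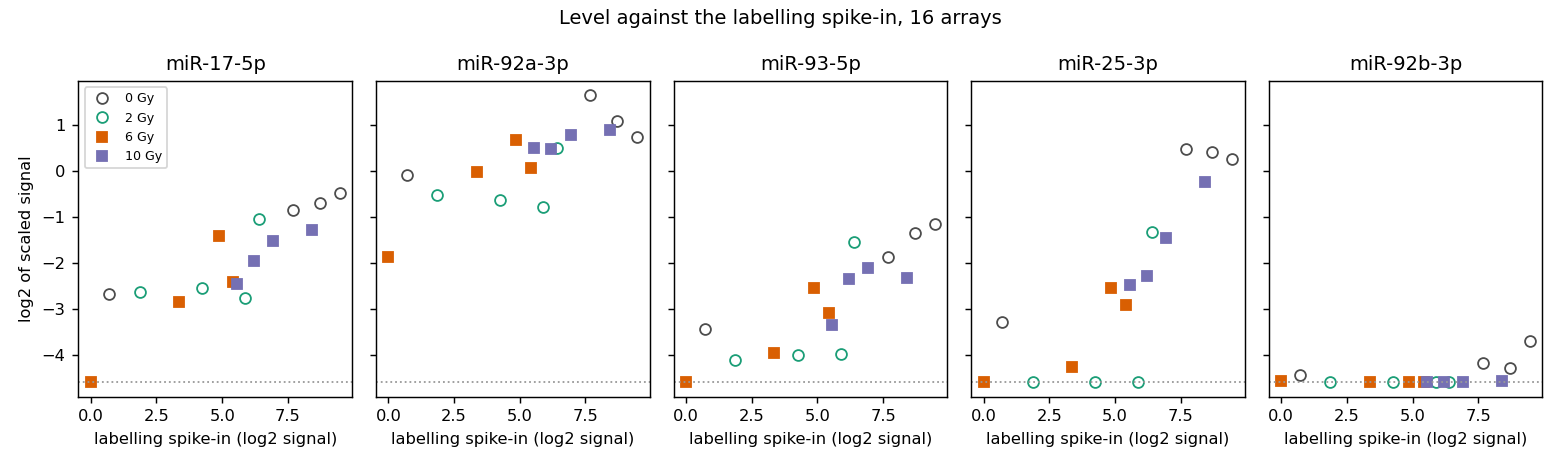
Log2 of scaled signal of each member (y axis) against the labelling spike-in (x axis, log2 signal) on the 16 arrays; open circles are 0 and 2 Gy (slide 1), filled squares 6 and 10 Gy (slide 2), and the dotted line the floor. All but miR-92b-3p are higher on arrays with more spike-in, and 0 Gy replicate 3 and 6 Gy replicate 4 are at the left edge.

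Members varied together from array to array, and miRNAs outside the group followed single members as closely (given below). The share of all 283 miRNAs that did so was not counted, so nothing particular to the clusters is read from this. In the 6 pairs without miR-92b-3p Pearson's r over the 16 arrays was 0.85 to 0.93 and Spearman's rho 0.87 to 0.95 (permutation, adjusted p over 10 pairs at most 3.33e-05 for r and 0.000133 for rho). Their r was 0.88 to 0.98 on slide 1, 0.80 to 0.97 on slide 2, 0.77 to 0.92 as deviations from the dose means and 0.81 to 0.95 without the 2 farthest arrays. The 2 pairs of 1 cluster, miR-25-3p with miR-93-5p (r = 0.93) and miR-17-5p with miR-92a-3p (r = 0.90), stood beside 4 pairs taken across clusters, of which miR-17-5p with miR-93-5p had the highest (0.93) and miR-92a-3p with miR-93-5p the lowest (0.85). The 4 pairs with miR-92b-3p had r of 0.40 to 0.62, and on slide 2 of -0.39 to 0.15.

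The closest patterns outside the 5 members, by Pearson's r over the 16 arrays, were as follows. For miR-25-3p they were miR-125b-5p (0.99), then miR-100-5p (0.98) and also miR-221-3p (0.98). For miR-17-5p they were miR-193b-3p (0.97), miR-1972 (0.97) and miR-29a-3p (0.96), and for miR-92a-3p miR-23a-3p (0.96), miR-222-3p (0.96) and miR-193b-3p (0.95). For miR-93-5p they were miR-361-5p (0.97), miR-324-3p (0.96) and miR-200c-3p (0.96), members being left out of this ranking. miR-92b-3p followed miR-4299 (0.91), miR-4284 (0.90) and miR-30e-5p (0.88), with lower rank correlations (0.63, 0.67 and 0.74). These values share the arrays, the scaling and the floor.

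Probes of 1 miRNA differed in size but not in direction at 2 and 6 Gy against 0 Gy, apart from 3 of 4 miR-92b-3p probes that read at the floor at all doses. The 2 probes of miR-92a-3p differed by -1.19 and -1.22 at 2 Gy against 0 Gy, and those of miR-93-5p by -1.92 and -1.0. The 3 probes of miR-17-5p gave -1.26, -1.02 and -0.92. The miR-17-5p probe at -1.02 was detected on 4, 2, 2 and 3 arrays at 0, 2, 6 and 10 Gy. The miR-93-5p probe at -1.0 was detected on 4, 3, 3 and 3. Both were kept only through 0 Gy, so the filter and the floor partly fix their falls, and nothing is read from their direction. Both count in the mean of their miRNA. For miR-25-3p 1 of 2 probes was used (-3.25), and the other, detected on 9 of 16 arrays, gave -1.68, with levels nearer the floor. The probe behind the miR-92b-3p values had a signal of 20.7 to 32.6 at 0 Gy, 10.2 to 21.7 at 2 Gy, 14.3 to 26.9 at 6 Gy and 10.4 to 18.7 at 10 Gy.

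Markers were used to see which cells' RNA the medium held. Of 10 miRNAs of the colorectal epithelium 7 were detected, the miR-200 family among them, while miR-192-5p, miR-194-5p and miR-215-5p, typical of differentiated intestinal epithelium, were not detected on any array. The summed scaled level of these 10 was 0.743 to 4.08 at 0 Gy, 0.658 to 2.33 at 2 Gy, 0.412 (all at the floor) to 1.05 at 6 Gy and 0.796 to 1.70 at 10 Gy, so its highest value was in unirradiated medium. The part of this shift in the members' differences was not tested. miR-92a-3p and miR-25-3p are abundant in red blood cells, and the medium contained serum. Of 5 red blood cell miRNAs miR-486-5p alone was detected, and miR-451a, the most abundant one, and both arms of miR-144 were not detected on any array. The summed level of that list was 0.236 to 0.243 at 0 Gy, 0.240 to 0.254 at 2 Gy, 0.234 to 0.266 at 6 Gy and 0.254 to 0.261 at 10 Gy, so its highest value at each irradiated dose was above that at 0 Gy. The 4 undetected miRNAs enter that sum at the floor, so its changes are those of miR-486-5p alone. The part of serum RNA in the members' levels was not tested. Of 6 miRNAs of white blood cells and platelets miR-155-5p alone was detected, 3 of 4 muscle miRNAs were, and the liver's miR-122-5p was detected on 4 arrays. The 3 muscle miRNAs, miR-133a-3p, miR-133b and miR-206, read from -4.60 (the floor) to -3.18. Detection this near the floor does not show which cells the RNA came from.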

How the data were processed

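Per the file headers, each deposited file is the output of Agilent Feature Extraction 11.5.1.1 for 1 single-colour array. Its processed signal is an intensity after background subtraction, which the deposited files give unscaled between arrays. Control and outlier-flagged spots (3.27 to 4.9% of an array) were left out, no spot was saturated, and spots of a probe were averaged. Detection required more than 0.5 of a probe's spots to be flagged as well above background. Signals were scaled as the report says, floored at 0.0412 (the median of the arrays' 5th percentile of detected probes) and put on the log2 scale. Probes detected on every array of some dose were kept (592 human probes), and a miRNA was the mean of its kept probes. Precision is limited by the 4 arrays per dose.

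Differences were fitted with limma 3.58.1 (lmFit, eBayes) in R 4.3.3, with the data.table package (version 1.17.8), on 16 arrays with a mean per dose, adjusted by Benjamini-Hochberg over 283 miRNAs, with a threshold of 0.05. Permutation tests were enumerated in Python 3.11.15 or resampled with NumPy 2.4.6, and SciPy 1.17.1 gave the ranks for Spearman's rho. The fit was run on simulated data with planted changes. Noise there was independent between miRNAs, with a variance scaled down from that at 0 Gy plus a constant. There was no floor and no effect shared by an array, so that run does not bear on the calls made here. The members, lists and tests were chosen with earlier results of these data known. The text names the 5 members, the listed relatives of their clusters and seeds, and per member the 3 non-members with the highest r. Alternatives covered scaling, background, floor, summary, filters, blocks, the spike-in covariate and each array left out.

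Doses share replicate numbers 1 to 4. Correlations of same-numbered deviations from the dose means were 0.23 to 0.72 for 10 Gy against 6 Gy, over 0.1 in 4 of 4 pairs, so the pairing there comes from the data. They were -0.76 to 0.75 at 2 Gy, -0.66 to 0.82 at 6 Gy and -0.71 to 0.59 at 10 Gy, each against 0 Gy. RefSeq's mouse tables (GRCm38.p6) gave the sequences, and human entries were not used here.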

Additional observations from a re-analysis of the deposited data

Results flagged for a closer look

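Within a dose, an array is given here if its gap to the nearest of the other 3 made up more of the dose's range than Dixon's 95% critical value for 4 samples allows. Chance alone marks about 1 in 20 independent groups, and 8 of 31 groups were marked. The groups share arrays on which members varied together, so that rate cannot be set against this count. It also does not hold for 3 of the 8, both of miR-92b-3p and that of miR-25-3p at 2 Gy. There the other 3 arrays lay at or next to the floor, and any array above it is marked by construction. The mark of miR-25-3p minus miR-93-5p at 2 Gy rests on the same 3 arrays, so the floor partly sets it. Of the 8 marked groups, 2 concern 0 Gy replicate 3, which was the lowest unirradiated array for miR-17-5p (-2.67, the next at -0.85) and for miR-25-3p (-3.29, the next at 0.25). Both labelling spike-ins were undetected on that array. Another 4 concern 2 Gy replicate 2, the highest 2 Gy array for miR-17-5p (-1.04, the next at -2.55), miR-93-5p (-1.55, the next at -3.99), miR-25-3p (-1.33, the next at -4.60) and miR-25-3p minus miR-93-5p within an array (0.22, the next at -0.50). This array had the highest labelling spike-in of its dose, 6.40 on the log2 scale. The last 2 are miR-92b-3p on 6 Gy replicate 4 (-4.57) and 10 Gy replicate 2 (-4.56), where the other 3 arrays of the dose were at the floor of -4.60.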

How the results depend on the processing

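The number of members called at 2, 6 and 10 Gy against 0 Gy was 2, 2 and 0, and the causes of its changes were not tested. All counts of members include miR-92b-3p where it passed, although nothing is read from it. It was 1 of the 2 called at 2 and at 6 Gy, and miR-25-3p was the other. In each setting with 1 member called at 10 Gy, that member was miR-92b-3p. Some counts of members below stand without the count of all miRNAs called. These are normexp background at 6 Gy, and at 2 Gy Agilent's total signal and the probes detected on at least 1 array. They cannot be set against the share of all miRNAs, so nothing is read from them. With probes detected on at least 1 array, miR-25-3p missed the threshold at 2 Gy (limma, adjusted p = 0.0530). Scaling over all probes gave 1, 1 and 0 members (129, 177 and 22 of 283 miRNAs), with 1 by the F test (104 miRNAs). It moved the median difference of all miRNAs by up to 0.37, and of its calls 111, 148 and 20 were higher, against 17, 17 and 1 before. No scaling gave 0 members and 0 miRNAs in all 3 comparisons, quantile normalization 72, 111 and 17 miRNAs (53, 74 and 15 of them higher, and 41 by the F test) with 1 member at 6 Gy, and normexp background 0 members and 0 miRNAs at 2 Gy, 1 member at 6 Gy and 0 miRNAs at 10 Gy. Agilent's total signal, with 331 miRNAs tested, gave 1 member at 2 Gy and 1 at 6 Gy (86 of 331 miRNAs, and 10 of 331 by the F test). A lower floor gave 1 member and 9 miRNAs at 10 Gy. Admitting probes detected on at least 1 array raised the miRNAs tested to 410 and gave 1 member at 2 Gy. Of the 410 miRNAs it called 83 at 6 Gy, 8 at 10 Gy, 1 for 10 Gy against 6 Gy and 5 by the F test. As more miRNAs were tested in these 2 settings, their counts cannot be set directly against those out of 283, such as 55 at 6 Gy. Keeping outlier spots gave 3 miRNAs at 10 Gy and 18, with 1 member, by the F test. The replicate block on 16 arrays called 3 members at 2 Gy, where miR-92a-3p passed (limma, adjusted p = 0.0481), and 3 at 6 Gy, where miR-17-5p passed (adjusted p = 0.0438, and 0.0416 with the slide row). It gave 68 miRNAs (24%) at 2 Gy, 75 (26.5%) at 6 Gy, 7 at 10 Gy and 21, with 1 member, by the F test. The slide row gave 80 (28.3%) at 6 Gy, 11 at 10 Gy and 18 by the F test. Slide 1 alone gave 0 members and 0 miRNAs at 2 Gy. The spike-in covariate gave 0 members and 1 miRNA at 6 Gy, 1 member and 53 miRNAs at 10 Gy, 1 miRNA for 10 Gy against 6 Gy and 24 by the F test. Slide 2 alone with the replicate block gave 2 members and 55 miRNAs for 10 Gy against 6 Gy. Without the 2 arrays with both spike-ins undetected, a choice made after seeing the data, 5, 5 and 1 members and 137, 135 and 62 miRNAs were called, and 4 members and 128 miRNAs by the F test. Without the 4 arrays with at least 1 undetected these were 5 members at 2 Gy and 1 at 10 Gy, 116 and 54 miRNAs, and 3 members and 64 miRNAs by the F test.

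Leaving out 1 array gave 0 to 4 members at 2 Gy (0 to 121 miRNAs) and 0 to 5 at 6 Gy (0 to 143). It gave 0 to 1 at 10 Gy (0 to 43), where the 1 member was miR-92b-3p. For 10 Gy against 6 Gy it gave 0 (0 miRNAs), and by the F test 0 to 4 (0 to 122).

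Directions turned as follows. At 10 Gy against 0 Gy miR-92a-3p was 0.027 with scaling over all probes and 0.091 without 0 Gy replicate 2, its leave-one-out range being -0.49 to 0.091, and miR-92b-3p was 0.035 with normexp. At 10 Gy against 6 Gy miR-17-5p was -0.0070 with the covariate. There miR-92b-3p was -0.12 (all probes), -0.25 (no scaling), -0.14 (quantile), -0.70 (total signal), -0.0045 (lower floor), -0.11 (covariate) and -0.0090 to 0.010 with 1 array left out. miR-17-5p minus miR-92a-3p was -0.051 at 2 Gy and -0.0021 at 10 against 6 Gy without the arrays with both spike-ins undetected, -0.18 at 10 against 6 Gy without those with at least 1 undetected, and -0.051 to 0.40 and -0.037 to 0.23 with 1 array left out. The spike-in correlation of miR-92b-3p was -0.085 without scaling, -0.35 with total signal and -0.14 on slide 2, and passed with normexp (0.53), with outlier spots kept (0.51) and without the 2 farthest arrays (0.65). It ranged from 0.32 to 0.57 with 1 array left out. On slide 1 alone it missed the threshold for miR-92a-3p (0.67), miR-93-5p (0.80) and miR-25-3p (0.78).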
